A study of Homo sapiens with 11 samples.

Results

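IMR32 cells, an established human neuroblastoma line with amplified MYCN, were examined on the 2 arrays of the hour 48 that carry the label shMYCN#3, named A and B, together with 5 reference arrays. These 7 arrays are part of a series of 11, and they were chosen by their titles alone. Both arrays A and B came from cells that had received pLenti-virus particles with a short hairpin RNA against MYCN and were collected 48 h later. Of the references, 2 came from cells without virus at 0 h, and 3 came from cells that had received the same kind of particle with the control hairpin SHC002 and were collected at 24, 48 and 72 h, 1 array at each hour. All groups shared the line, a DMEM medium with fetal calf serum, and RNA isolation with Trizol and RNeasy. IMR32 is a single line, and the share of cells that took up virus is not given in the labels. The design text calls the transductions duplicate, but whether A and B were separate cultures is not stated in full, so the spread behind every p-value is that between arrays and may be technical. The references pooled 2 treatments and 4 hours, and the differences among them were kept as error.

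MYCN is a transcription factor of the MYC family, which binds DNA as a heterodimer with MAX at E-box sequences, of which CACGTG is the canonical form. MXD proteins, MXI1 and MNT compete for MAX. In neuroblastoma, amplified MYCN is known to go with proliferation, ribosome production and a block of neuronal maturation, and hairpin viruses are used to lower it by degrading its mRNA.

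The values are signal intensities in the unit the authors deposited, brought to a common level on every array (the middle 96% of probe sets averaged about 100), which hides any change of the total RNA per cell. Median signals were 14.9 to 16.7 on the 11 arrays of the series, and GAPDH control probe sets gave 3' over 5' signals of 0.970 to 1.07. For ACTB this ratio was 1.33 on A, the highest of the 11 arrays, 1.22 on B and 1.19 to 1.26 on the references, and its part in the results was not tested. Array A stood apart in its added control RNAs. The 27 probe sets for bacterial poly-A RNAs, which are spiked into the sample, averaged 2.07-fold the reference level on A and 0.939-fold on B, while no reference exceeded 1.02-fold. For hybridization spikes, 9 probe sets picked by name, which may not be all of them, averaged 1.21-fold on A and 0.946-fold on B. The highest reference was 1.08-fold. The identity of the cells was checked on adrenergic neuroblastoma markers. The summed signal of the measured markers was 5485.3 to 6160.7 on the references, 6346.3 on A and 6055.6 on B, but its members moved in different ways. GATA3, at 3323.5 and 3346.1 on A and B, and ISL1, at 788.6 and 753.2, were within the references. DBH, at 139.8 and 154.3, was below all references (157.8 to 216.8), while CHGA, at 1733.0 and 1397.7, and CHGB, at 289.1 and 281.6, were above all of theirs (at most 1365.6 and 216.3). TH, the first enzyme of catecholamine synthesis, was near background on all 7 arrays, from 0.6 to 10.6. The summed Schwann and glial markers reached at most 18.3 and the leukocyte markers at most 18.7 on any of the 7 arrays, and none of these markers was above the filter on dim genes. Of the longer list of leukocyte genes, CD79A and FCER1G were tested and neither passed limma's test (0 had an unadjusted p under 0.05), and no member of the Schwann and glial list was above the filter.

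MYCN, the labelled target, comes first because it tests the labels. Of its 10 probe sets, 4 lay above the dim filter, and none of the 10 passed limma's test against the references. On the brightest, MYCN measured 5241.4 on A and 5316.9 on B, against 5040.1 and 4507.4 without virus and 5332.1, 5389.7 and 5055.3 with SHC002 at 24, 48 and 72 h. Both arrays therefore lay inside the range of the references, and the log2 difference was 0.06 ± 0.09 (standard error of the fit, limma adjusted p = 0.778). The second MYCN probe set measured 319.4 on A and 624.2 on B, against 354.8 to 520.1 on the references, a mean log2 difference of 0.15 ± 0.21 (limma adjusted p = 0.742). The third measured 183.4 on A and 354.4 on B, against 216.2 to 290.2 on the references, at 0.11 ± 0.19 (limma adjusted p = 0.807). On both of these MYCN probe sets A lay below all 5 references and B above all 5. The difference of A from B was -0.93 ± 0.23 on the second (limma adjusted p = 0.119) and -0.89 ± 0.20 on the third (limma adjusted p = 0.0996), so neither passed. On these probe sets the sign for the pair rests on B: without B the second gave -0.31 and the third -0.33, and without A the third passed as higher (0.56, limma adjusted p = 0.0482). The fourth MYCN probe set measured 36.0 and 45.3, within the references' 22.6 to 46.4. No fall of MYCN mRNA passed at this hour, so A and B are called labelled shMYCN, and every direction given for them rests on that label. The place of each probe set relative to the hairpin's target is not known here, and MYCN protein was not measured.

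**Figure D1:**
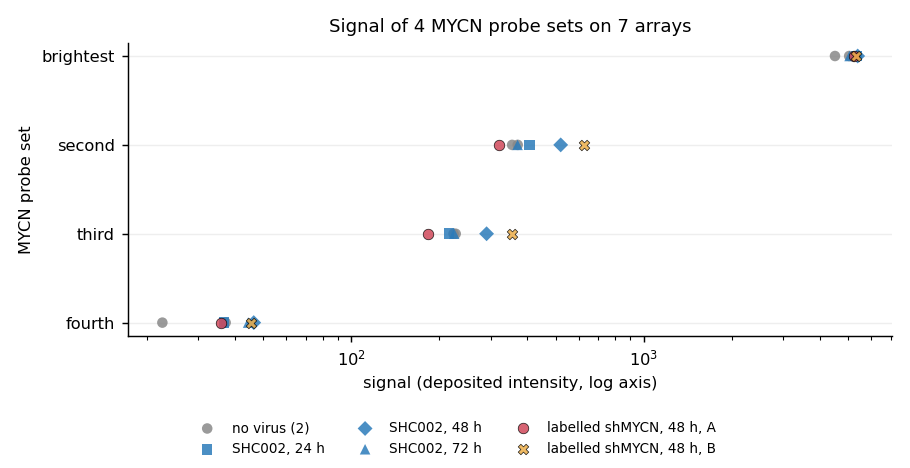
Signal of the 4 MYCN probe sets above the dim filter on 7 arrays, with a log axis of deposited intensity and 1 point an array. On the brightest, A (5241.4) and B (5316.9) lie among the references, and on the second and the third A lies below and B above all 5 references.

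The first question was which genes set apart the 48 h pair labelled shMYCN from the 5 references. Each gene was represented by its brightest probe set, and values were compared as log2(signal + 16), which understates the fold of dim genes. Of 11865 genes tested, 3771 passed limma's test with Benjamini-Hochberg adjustment at 0.05, two-sided, or 31.8%. Of these, 2205 were higher (18.6% of the genes tested) and 1566 lower (13.2%), around a median difference of 0.04 over all genes. Changes of at least 2-fold were fewer and, at this offset, mostly falls: 51 genes were higher and 135 lower by that much. The offset weighs more on the rises, whose references were dimmer. Median reference signals were 88.45 for genes called higher by at least 1.5-fold and 343.26 for those called lower. Both arrays lay above all 5 references for 2857 genes (24.1% of those tested) and below all 5 for 1964 (16.6%). These counts depended on the comparator and on its number of arrays, since fewer arrays leave less power to call a gene. The fit with a single reference array had 4 residual degrees of freedom in place of 7. This limit holds for every later count against the SHC002 array of 48 h alone. Shares over all genes differ in that fit and in the fits without A or without B, so 18.6% and 13.2% do not apply there. Against the single SHC002 array of 48 h, the matched hour, 2015 genes passed, of which 1888 were among the 3771, and the lone array was assumed to vary like the other groups. The arrays read bulk RNA, so fewer cells with an mRNA and less of it per cell cannot be told apart.

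STMN2, which regulates microtubules in growing axons, measured 319.1 on A and 343.7 on B, against 90.2 and 80.5 without virus and 81.0, 67.4 and 70.3 with SHC002. Its log2 difference was 1.89 ± 0.10, or 3.71-fold, the largest rise past the threshold at the offset of 16 (limma adjusted p = 6e-09). The other STMN2 probe set gave 1.97. DCX, the microtubule-binding doublecortin of young neurons, measured 1420.0 and 1205.4, against 395.3 and 359.3 without virus and 383.5, 452.4 and 615.1 with SHC002 at 24, 48 and 72 h. Its references were not flat: the SHC002 array of 72 h was the highest of the 5, and still below the lower of the pair. DCX rose by 1.56 ± 0.15 as a log2 difference (limma adjusted p = 1.73e-06). TPPP3, a tubulin-binding protein gene, measured 28.5 and 41.4 over references of 2.2 to 9.4, a level under the mean signal of about 14.8 at the dim filter, so its log2 difference of 1.32 has little below it.

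ABAT, which breaks down the transmitter GABA, measured 337.6 and 263.2, against 59.1 to 80.7 on the references (log2 1.87 ± 0.11, limma adjusted p = 1.54e-08). Its dimmest probe set, at 24.8 and 16.1 over 8.8 to 12.1, gave 0.44 and did not pass (limma adjusted p = 0.0674), while the other gave 1.29. ADGRG1, an adhesion receptor gene, measured 574.7 and 623.2, against 150.6 and 126.7 without virus and 138.2, 196.0 and 210.2 with SHC002 (log2 1.79 ± 0.14). The other ADGRG1 probe set gave 1.20 and was uneven, at 60.9 on A and 112 on B. CDKN1C, the gene of the cell cycle inhibitor p57, measured 461.9 and 445.8 over references that spanned only 130.2 to 155.4, and rose by 1.60 ± 0.08 (limma adjusted p = 1.72e-09). For all 3 genes no reference came near the pair. Of the 4 other CDKN1C probe sets, 3 gave 1.05 to 1.23, and the fourth was at or under 2.2 on all 7 arrays.

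The remaining leading rises were ENPP2 (log2 1.48), which makes the signalling lipid lysophosphatidic acid, PLEKHA6 (1.45), the non-coding LINC01828 (1.41) and CRABP2 (1.29), which binds retinoic acid in cells. PLEKHA6 measured 32.6 and 42.8 where the references were dim, at 1.2 to 2.9 apart from 10.8 with SHC002 at 48 h. A dimmer PLEKHA6 probe set, at 11.4 and 7.5, gave 0.42 and did not pass (limma adjusted p = 0.0668). CRABP2 had the most uneven references, with 142.4 and 166.8 with SHC002 at 48 and 72 h against 75.3 to 96 on the others, and a standard error of 0.20 (limma adjusted p = 0.000227).

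At the offset of 16 the falls were deeper, and they were led by genes of unlike function. With an offset of 1 the deepest of these falls was REEP3, at -2.53. At that offset PLEKHA6 rose by 3.30 and TPPP3 by 2.84, while STMN2 rose by 2.08. Which of rises and falls went farther therefore depended on the offset. GABARAP, an ATG8-family protein gene of autophagosomes, measured 527.0 on A and 583.0 on B, against 2974.6 and 2796.3 without virus and 3154.9, 2989.7 and 2693.3 with SHC002. Its log2 difference was -2.36 ± 0.07, the largest fall past the threshold at the offset of 16 (limma adjusted p = 5.99e-11). The pair was 5.14-fold below the references. REEP3, an endoplasmic reticulum protein gene, measured 97 and 60.3, against 422.2 to 491.4 on the references, a difference of -2.32 ± 0.12. Here the pair itself was uneven, with A above B by 0.57 ± 0.14 (limma adjusted p = 0.0473, in the comparison of A with B), and a dimmer REEP3 probe set gave -1.22 with 13.7 and 14.5 on A and B.

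ID3, whose product keeps basic helix-loop-helix (bHLH) factors off DNA, measured 42.0 and 59.7, against 311.3 and 326.0 without virus and 329.1, 248.2 and 163.3 with SHC002 at 24, 48 and 72 h. The lowest reference was again SHC002 at 72 h, and both arrays of the pair lay well below it (log2 -2.10 ± 0.20, limma adjusted p = 2.11e-06). The small GTPase gene RAP1A measured 307.3 and 273.0 against 1103.9 to 1304.2 (log2 -2.05 ± 0.08). A second RAP1A probe set gave -0.91, and 2 probe sets at or under 11.8 on all 7 arrays gave 0.01 and 0.05.

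Respiratory chain subunit genes were among the deepest falls, although 19 of the 27 members of their list did not pass. NDUFB2, a subunit of complex I, measured 570.4 and 688.6 against 2383.7 to 2711.2 (log2 -2.0 ± 0.08). Another NDUFB2 probe set gave -2.29 and another, dim one 0.07, at 25.8 to 43.8 on the 7 arrays. COX5B, a subunit of complex IV, measured 485.8 and 506.3 against 1565.8 to 1951.5 (log2 -1.82 ± 0.08), and its 3 other probe sets gave -2.11, -2.01 and -0.50. The other leading falls were the ubiquitin ligase gene UBE4A (log2 -1.91), the RNA-binding protein gene MEX3D (-1.87), NKAIN1 (-1.84), which encodes a partner of the sodium pump, and EPDR1 (-1.79). For MEX3D the references spanned 234.0 to 393.1 and the pair measured 60.4 and 86.3, while 2 other MEX3D probe sets at or under 15.3 gave -0.06 and -0.30 and did not pass.

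**Figure D2:**
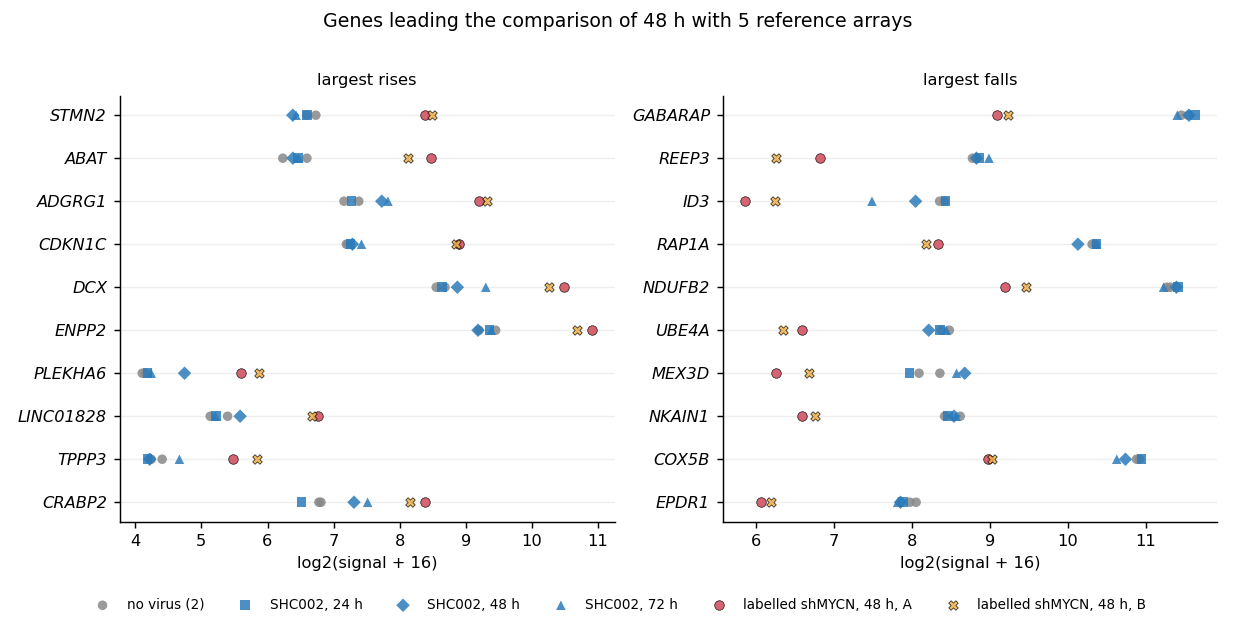
The 10 largest rises and 10 largest falls of the 48 h pair against 5 references, as log2(signal + 16), with 1 point an array. Both arrays labelled shMYCN lie outside the references for all 20 genes, which the choice of the genes required, and SHC002 at 72 h is the reference nearest to the pair for DCX and ID3.

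The 48 h pair held a middle place in the time course for most of these genes. STMN2 measured 119.4 and 122.7 at 24 h and 1106.4 and 931.9 at 72 h on the arrays labelled shMYCN, with 319.1 and 343.7 between them. GABARAP measured 1962.2 and 1770.5 at 24 h and 404.3 and 421.1 at 72 h. For all 10 leading rises the lower array of 48 h exceeded both arrays of 24 h, and both arrays of 72 h exceeded the higher array of 48 h. For the 10 leading falls the pair was below both arrays of 24 h in all 10 and above both of 72 h in 7. The exceptions were REEP3, UBE4A and MEX3D, whose pairs overlapped those of 72 h: REEP3 measured 94.3 and 97.2 there, UBE4A 67.6 and 76.5, and MEX3D 68.0 and 80.8. Over all genes called higher at 48 h, 51.6% were higher again on both arrays of 72 h, and over those called lower 55.1% were lower again. The full middle place, past both arrays of 24 h as well, was held by 44.0% of the genes called higher and 49.2% of those called lower. The same shares over all genes tested were not counted. The genes were selected on their 48 h values and these counts were chosen after values had been seen, so they are a description and no test.

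Promoter sequences of leading genes are shown because MYC-family proteins bind CACGTG, and the falls include genes with and without that hexamer near the start site. Each runs 5′ to 3′ from 250 bases before to 50 bases after the RefSeq start on GRCh38.p14, on the gene's own strand, with CACGTG in capitals. They are the largest falls and rises with an entry in the RefSeq table, and the next falls that hold the hexamer.
GABARAP promoter, chr17:7242400-7242699, minus strand: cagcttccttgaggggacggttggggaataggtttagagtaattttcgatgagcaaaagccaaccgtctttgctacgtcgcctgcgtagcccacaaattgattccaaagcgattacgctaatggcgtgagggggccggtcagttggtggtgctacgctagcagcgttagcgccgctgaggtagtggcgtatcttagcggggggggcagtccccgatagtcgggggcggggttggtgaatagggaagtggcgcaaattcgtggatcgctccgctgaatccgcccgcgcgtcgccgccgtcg
ID3 promoter, chr1:23559452-23559751, minus strand: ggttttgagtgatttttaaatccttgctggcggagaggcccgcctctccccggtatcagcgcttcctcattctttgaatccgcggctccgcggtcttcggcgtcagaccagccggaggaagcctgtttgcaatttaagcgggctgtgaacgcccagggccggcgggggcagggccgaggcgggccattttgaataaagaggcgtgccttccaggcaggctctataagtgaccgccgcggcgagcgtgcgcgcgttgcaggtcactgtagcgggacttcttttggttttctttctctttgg
MEX3D promoter, chr19:1568276-1568575, minus strand: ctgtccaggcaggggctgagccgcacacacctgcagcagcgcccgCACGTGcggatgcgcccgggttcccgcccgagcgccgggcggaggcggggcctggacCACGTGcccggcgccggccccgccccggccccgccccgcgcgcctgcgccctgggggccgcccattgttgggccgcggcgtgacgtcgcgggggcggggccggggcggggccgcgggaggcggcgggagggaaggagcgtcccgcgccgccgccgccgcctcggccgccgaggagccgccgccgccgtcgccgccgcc
NKAIN1 promoter, chr1:31239838-31240137, minus strand: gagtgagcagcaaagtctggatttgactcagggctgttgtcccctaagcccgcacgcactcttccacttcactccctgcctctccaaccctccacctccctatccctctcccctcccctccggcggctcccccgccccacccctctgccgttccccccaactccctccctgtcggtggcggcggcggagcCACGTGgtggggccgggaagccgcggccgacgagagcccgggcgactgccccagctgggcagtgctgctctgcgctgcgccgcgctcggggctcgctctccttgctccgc
ABAT promoter, chr16:8674367-8674666, plus strand: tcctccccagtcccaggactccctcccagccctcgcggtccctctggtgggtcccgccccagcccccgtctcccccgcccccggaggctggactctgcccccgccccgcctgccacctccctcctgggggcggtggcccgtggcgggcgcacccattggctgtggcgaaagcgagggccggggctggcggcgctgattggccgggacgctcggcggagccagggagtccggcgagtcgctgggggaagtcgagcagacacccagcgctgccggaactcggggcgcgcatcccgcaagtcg
ADGRG1 promoter, chr16:57619488-57619787, plus strand: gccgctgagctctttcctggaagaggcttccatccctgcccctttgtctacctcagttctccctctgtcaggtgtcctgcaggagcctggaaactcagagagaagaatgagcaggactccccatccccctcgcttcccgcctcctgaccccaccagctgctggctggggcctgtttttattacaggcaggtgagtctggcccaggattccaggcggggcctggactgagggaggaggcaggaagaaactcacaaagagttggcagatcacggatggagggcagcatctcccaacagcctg
Of the 10 leading falls 9 had an entry, and 2 of these held CACGTG, MEX3D with 2 copies and NKAIN1 with 1. Of the 10 leading rises 5 had an entry, and PLEKHA6 held the hexamer. REEP3, STMN2, CDKN1C, ENPP2, LINC01828 and TPPP3 were not matched.

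Across the table, 9698 of the 11865 genes tested had such a promoter window (81.7%), and CACGTG, which reads the same on both strands, was in 10.7% of them. Among the 472 genes called lower by at least 1.5-fold, 383 had a window (81.1%), and 12.8% of these held CACGTG. The E2F motifs TTTCCCGC and TTTGGCGC, searched on both strands, were in 5.74% of the windows of those falling genes and in 3.68% of all windows. Among the 484 genes called higher by at least 1.5-fold only 76.9% had a window, under the 80% needed, so the same shares are void for the rises. A match is a description of these letters and not a bound site.

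Neuronal differentiation genes were mostly higher at 48 h. Of 44 members tested, 26 were higher, 1 was lower and 17 did not pass, against 18.6% higher and 13.2% lower over all genes, and the list's median log2 difference was 0.31 beside 0.04. MAP2, a dendritic microtubule-associated protein gene, measured 1796.7 and 1640.2 against 926.1 to 1029.5 (log2 0.81 ± 0.07, limma adjusted p = 5.4e-07). Fewer members were called higher without A, without B or against the SHC002 array of 48 h alone, and so were fewer of all genes. Beyond the genes named by the rule, chosen after their values were seen, the adhesion molecule genes CNTN1 (1.03) and L1CAM (0.66), the vesicle protein gene SYT4 (0.98) and the tubulin gene TUBB3 (0.32) also rose. MAP1B, another microtubule-associated protein gene, was the member that fell, at 1381.5 and 1458.9 against 2139.1 to 2513.3 (log2 -0.71). Without B more members were called lower, and so were more of all genes.

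The ID genes and neurogenic bHLH factors split. ID proteins hold bHLH factors away from DNA. ID1 measured 408.2 on A and 548.9 on B, against 1768.8 and 1826.6 without virus and 1897.8, 1868.4 and 1047.4 with SHC002 at 24, 48 and 72 h (log2 -1.76 ± 0.18, limma adjusted p = 4.58e-06). As for ID3, SHC002 at 72 h was the lowest reference. Of the 12 members tested, 4 were higher, 3 lower and 5 did not pass. These are 33.3% higher and 25% lower, against 18.6% and 13.2% over all genes. HEY1, a repressor induced by Notch, rose from 50.9 to 64.7 on the references to 180.5 and 150.5 (log2 1.27 ± 0.11). The other members that passed, all named after their values were seen, were ID2 (-0.43) among the falls and ID4 (0.86), NHLH2 (0.58) and TCF3 (0.51) among the rises, so ID4 went against ID1, ID2 and ID3.

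Adrenergic identity genes did not move one way, with 5 of 18 higher, 5 lower and 8 not past the threshold. Each direction held 27.8%, against 18.6% higher and 13.2% lower over all genes. LIN28B, a repressor of let-7 processing, rose to 918.2 and 958.1 from 573.9 to 617.3 (log2 0.66 ± 0.06), and the LIM-domain cofactor gene LMO3 rose by 0.95 ± 0.10. EYA1 fell by 0.47 ± 0.06, but not with the mean of all its probe sets (-0.09, limma adjusted p = 0.466). Without A only 2 members were called lower. Of the mesenchymal state genes 9 of 18 were lower, or 50% against 13.2% over all genes, and 2 were higher (median -0.23). SNAI2, an epithelial-mesenchymal transition factor, measured 277.1 and 238.1 against 482.7 to 669.2 (log2 -1.07 ± 0.11), YAP1, the effector of Hippo signalling, fell by 0.81 ± 0.10, and the collagen gene COL4A1 fell by 0.69 ± 0.08. COL1A1 was an exception, higher by 0.71 ± 0.11 and itself uneven, at 651.3 on A and 432.2 on B. Of the fibroblast and endothelial list, none of 5 tested members passed limma's test (0 had an unadjusted p under 0.05), although PDGFRA, the brightest, was above all references at 975.5 and 906.8 against 755.4 to 888.4. LUM and DCN were too dim to be tested and were also above all references on both arrays, LUM at 10.3 and 10.4 against 1.5 to 6.4 and DCN at 14.1 and 15.7 against 10.9 to 13.0. VWF, at 3.1 and 3.3 against 0.5 to 10.0, was within them, and the part of such cells in the result was not tested.

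Of 44 DNA replication and G1/S genes, 19 fell, none rose and 25 did not pass, which is 43.2% lower against 13.2% over all genes, with a median of -0.19. Under 7 of the alternatives, quantile normalization and leaving out B among them, 1 member was called higher. MCM3, a subunit of the replicative helicase, measured 614.9 and 692.9 against 1353.5 to 1456.9 (log2 -1.10 ± 0.06, limma adjusted p = 1.04e-08). CCNE2, a cyclin of S phase entry, measured 179.7 and 151.9 against 346.0 to 394.0, and the E2F transcription factor gene E2F2 92.4 and 110.2 against 198.3 to 220.7, with differences of -1.09 ± 0.08 and -0.96 ± 0.09. In both, the references were tight and the pair far below them, which the choice of list members by smallest p favoured. The count of falls was the same without A and without B. It was smaller against the SHC002 array of 48 h alone, where fewer of all genes were lower too.

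The mitosis list had 9 of 46 lower, 1 higher and 36 not past the threshold, 19.6% lower beside the 13.2% of all genes. KIF23, a kinesin of cytokinesis, fell by 1.14 ± 0.08, ANLN, which organizes the contractile ring, by 0.89 ± 0.08 and FOXM1, a transcription factor of G2, by 0.58 ± 0.08. KIF23 was nearly equal on the pair, at 116.5 and 115.6, against 250.3 to 297.0 on the references. AURKA was the member called higher (0.31), and without B 3 were. The list of CDK inhibitors and the RB family also holds CCNG1, CCNG2 and BTG1, which are genes of neither kind. Of this list 5 of 11 were higher and 1 lower, or 45.5% and 9.09%, against 18.6% and 13.2% over all genes. Besides CDKN1C these rises were CCNG2 (0.77 ± 0.11), BTG1 (0.44 ± 0.07), CCNG1 (0.34 ± 0.06) and RBL2 (0.63 ± 0.16), of which RBL2 was higher on A alone, at 588.9 against 326.2 on B and 252.5 to 337.1 on the references. CCNG1 did not pass against the SHC002 array of 48 h alone (limma adjusted p = 0.0646). CDKN1A, which encodes p21, was the member that fell, at 69.7 and 74.8 against 96.3 to 152.3 (log2 -0.59).

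Synthesis of nucleotides, ribosomes and proteins was examined next, beside shares over all genes of 18.6% higher and 13.2% lower. The nucleotide and polyamine list had 42.9% lower and 7.14% higher, and ribosome biogenesis had 33.3% lower. For nucleotide and polyamine synthesis, 12 of 28 members were lower and 2 higher (median -0.18), but without A 6 were lower and none higher. RRM2, the regulated subunit of ribonucleotide reductase, measured 1489.2 and 1384.6 against 2456.1 to 2658.5 (log2 -0.83 ± 0.06), and the purine synthesis genes ADSL (-0.66 ± 0.06) and GMPS (-0.52 ± 0.06) followed. ODC1, which starts polyamine synthesis and is a textbook MYC target, was one of the 2 that rose, from 2498.6 to 2761.4 on the references to 3529.1 and 3051.9 (log2 0.30), and PFAS (0.20) was the other. For ribosome biogenesis 13 of 39 were lower and none higher (median -0.20). LYAR, a nucleolar protein gene, measured 128.7 and 87.1 against 263.9 to 278.3 (log2 -1.23 ± 0.11), the snoRNP protein gene GAR1 fell by 0.91 ± 0.12, and PNO1 fell by 0.39 ± 0.06, although not with the mean of all its probe sets (limma adjusted p = 0.0575).

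Ribosomal proteins themselves gave no call. None of the 26 tested passed limma's test (0 had an unadjusted p under 0.05), and the median was 0.02. RPL36, with the smallest p, measured 2638.6 and 2545.4 against 2147.9 to 2559.6 (log2 0.12 ± 0.07, limma adjusted p = 0.206). RPS28 gave -0.12 ± 0.10 and, as the mean of its probe sets, 0.19. Ribosomal protein genes have many near-identical pseudogenes, so their probe sets are uncertain. Translation factors and tRNA synthetases had 12 of 24 lower and none higher (median -0.18), or 50% lower against 13.2% over all genes. EIF2S2, a subunit of the initiation factor eIF2, measured 953.9 and 928.1 against 2231.1 to 2414.9 (log2 -1.29 ± 0.06), the isoleucyl-tRNA synthetase gene IARS1 fell by 0.85 ± 0.07 and EIF6 by 0.66 ± 0.06. Against the SHC002 array of 48 h alone, fewer ribosome biogenesis and translation genes were lower, and so were fewer of all genes. Whether these lists differ from one another was not tested.

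**Figure D3:**
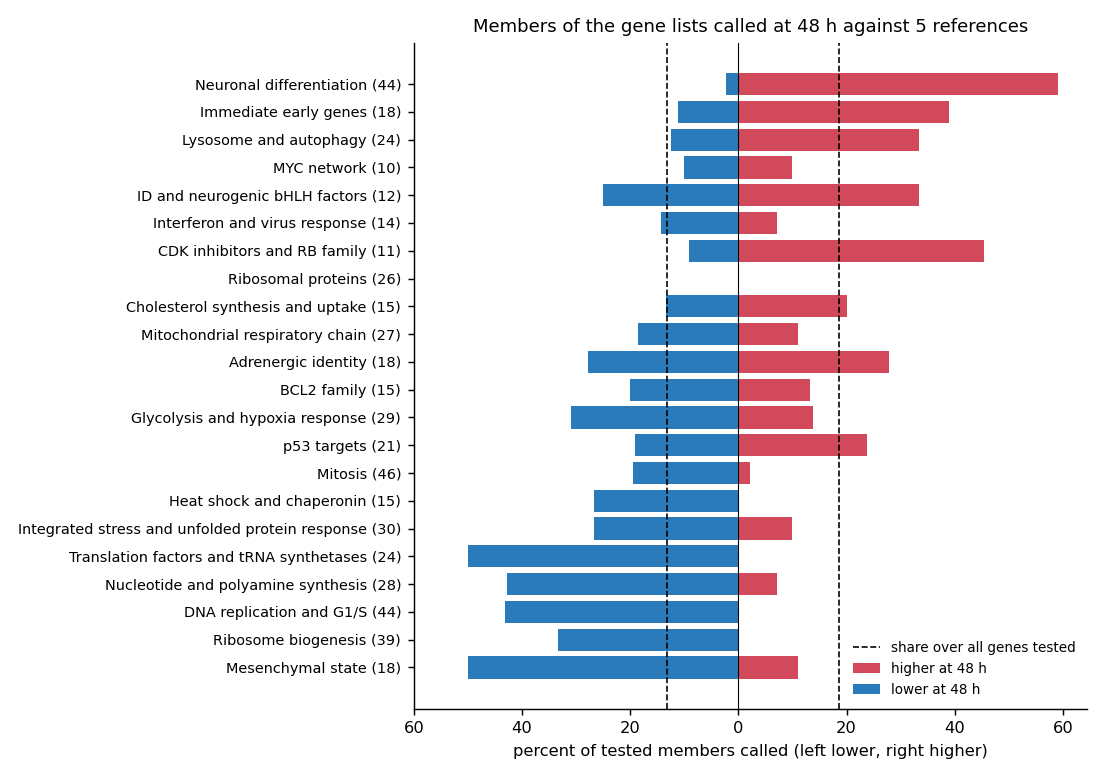
Share of tested members of each gene list called lower (left bars) or higher (right bars) at 48 h against 5 references, in percent, with the number tested in parentheses and dashed lines at the shares over all genes (13.2% lower, 18.6% higher). Neuronal differentiation reaches 59.1% higher, and DNA replication and G1/S 43.2% lower.

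Of 29 glycolysis and hypoxia genes, 9 were lower and 4 higher (median -0.02), or 31.0% and 13.8%. PFKM, a phosphofructokinase gene, measured 293.8 and 299.8 against 795.5 to 873.8 (log2 -1.42 ± 0.07, limma adjusted p = 1.98e-09), and PFKFB3, whose product activates phosphofructokinase, fell by 0.90 ± 0.09. ENO2, the neuronal enolase gene, rose by 0.87 ± 0.12, to 417.4 and 502.2 from 219.2 to 309.2. The respiratory chain list had 5 of 27 lower and 3 higher (median 0.00), or 18.5% and 11.1% against 13.2% and 18.6% over all genes, and without B 8 were lower. Beside NDUFB2 and COX5B, the complex I subunit gene NDUFS1 fell by 0.57 ± 0.08. The 3 rises, NDUFB8, UQCRC2 and COX7C, had limma adjusted p of 0.037 to 0.048, and none was called without A.

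Lysosome and autophagy genes had 8 of 24 higher and 3 lower (median 0.13), or 33.3% and 12.5%, against 18.6% and 13.2% over all genes. The falls were the larger changes. Besides GABARAP, the proton pump subunit gene ATP6V1D fell from 430.4 to 472.3 on the references to 146.3 and 137.4 (log2 -1.56 ± 0.08), and the lysosomal membrane protein gene LAMP2 fell by 0.93 ± 0.10. The ATG8-family relatives GABARAPL2 (0.24) and MAP1LC3B (0.52), named after their values were seen, were higher. Most rises of this list were not called against the SHC002 array of 48 h alone, where fewer of all genes were higher too. Cholesterol synthesis and uptake had 3 of 15 higher and 2 lower, shares of 20% and 13.3% that are near the 18.6% and 13.2% of all genes. HMGCS1, an early enzyme of the pathway, fell by 1.11 ± 0.10 and DHCR7, a late one, by 0.59 ± 0.13, while MSMO1 rose by 0.43 ± 0.08. Without A DHCR7 did not pass (limma adjusted p = 0.0631), and the counts were 1 higher and 1 lower.

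The p53 targets had 5 of 21 higher and 4 lower, or 23.8% and 19.0%, near the 18.6% and 13.2% of all genes, with GADD45A at 1126.7 and 1211.4 against 577.3 to 829.8 (log2 0.80 ± 0.11) and SESN2 at -0.75 ± 0.13, and 3 were higher when A or B was left out. The integrated stress and unfolded protein response had 3 of 30 higher and 8 lower, or 10% and 26.7%, against 18.6% and 13.2% over all genes. This list was led by MANF (-0.54 ± 0.06), the serine synthesis gene PHGDH (-0.73 ± 0.08) and CEBPB (-0.56 ± 0.07). Heat shock and chaperonin genes had 4 of 15 lower, or 26.7% against 13.2% over all genes, and none higher. The falls were CCT7 (-0.57 ± 0.08), DNAJA1 (-0.42 ± 0.07), HSPH1 (-0.35 ± 0.07) and CCT2 (-0.26). In the BCL2 family 2 of 15 were higher and 3 lower, or 13.3% and 20%, also near those shares. MCL1, a short-lived survival protein gene, measured 993.4 and 1252.7 against 1871.8 to 2081.4 (log2 -0.80 ± 0.08), BCL2L12 fell by 0.85 ± 0.13, and the pro-death gene BCL2L11 rose by 0.74 ± 0.11, a call that was lost with the mean of all its probe sets (0.13, limma adjusted p = 0.165).

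Immediate early genes had 7 of 18 higher and 2 lower (median 0.24), or 38.9% and 11.1%, against 18.6% and 13.2% over all genes. DUSP6, a phosphatase of ERK, measured 125.0 and 117.1, against 40.7 and 41.4 without virus and 50.4, 67.0 and 81.0 with SHC002 at 24, 48 and 72 h, so its references rose with the hour (log2 0.96 ± 0.17). JUND was higher by 0.38 ± 0.07, and not with the mean of its probe sets (0.17, limma adjusted p = 0.133). SRF, which drives many of these genes, was lower, at 46.6 and 62.7 against 108.8 to 148.8 (log2 -0.94 ± 0.13). The interferon and virus response list bears on the virus itself, which 3 of the references also received. Of its tested members 7.14% were higher and 14.3% lower, against 18.6% and 13.2% over all genes. IFIT5 fell from 466.7 to 529.0 on the references to 196.9 and 184.3 (log2 -1.33 ± 0.07), IFI44 rose by 0.57 ± 0.14, USP18 fell by 0.55 ± 0.16, and the other 11 of 14 did not pass. USP18 lost its call without A (limma adjusted p = 0.183). Its references were 141.5 and 147.4 without virus and 161.7, 182.5 and 233.6 with SHC002.

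The MYC network list gave 2 calls among 10 members tested. That is 10% higher and 10% lower, against 18.6% and 13.2% over all genes. MXI1, which competes for MAX, measured 916.7 and 926.8, against 597.2 and 545.4 without virus and 582.3, 619.4 and 756.3 with SHC002 (log2 0.57 ± 0.10, limma adjusted p = 0.000508). MLX was lower by 0.28 ± 0.07 (limma adjusted p = 0.00444), a call lost without A (-0.21, limma adjusted p = 0.0545). The antisense transcript MYCNOS just missed the threshold at 0.30 ± 0.11 (limma adjusted p = 0.0521) and overlaps the MYCN locus, so its signal is uncertain. MYCL gave 0.17 ± 0.15, MXD1 0.10 ± 0.11, MXD3 0.10 ± 0.17 and MNT 0.12 ± 0.10, and none of these passed. MXD3 and MNT changed sign without B. MAX and MLXIP differed between A and B more than they did from the references. MAX measured 700.3 on A and 1003.4 on B, against 706.9 to 770.8 on the references, and MLXIP 257.3 and 399.9 against 345.1 to 396.4. MAX was called higher without A (0.41, limma adjusted p = 0.00145), and MLXIP was called lower without B (-0.52, limma adjusted p = 0.000291).

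The references were not equally far from the pair. For the genes called higher, the SHC002 array of 72 h was the highest reference in 770 of 2205 (34.9%), against 22.7% of the genes not called. The SHC002 array of 48 h, the matched hour, went the other way, with 12.4% against 22.4%. For the genes called lower the SHC002 array of 72 h was the lowest reference in 409 of 1566 (26.1%), against 22.9%. The spread of each array about the mean of the other references, as an SD over genes, was 0.182 for that array and 0.142 to 0.165 for the other references, against 0.384 for A and 0.350 for B. This comparison was chosen after values had been seen, and virus and hour cannot be told apart in single arrays.

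How far A and B were alike was asked next. Across the genes tested, the log2 signals of A and B correlated at r = 0.987, a description over genes that are not independent. The SD of the difference of A from B was 0.271, against 0.181 for the pair labelled shMYCN at 24 h, 0.186 for that at 72 h and 0.172 for the arrays without virus. Against the same 5 references, A alone gave 3956 calls (33.3% of the genes tested) and B alone 2924 (24.6%), in a fit where the lone array was assumed to vary like the others. The calls common to both numbered 1962, which is 49.6% of A's and 67.1% of B's. Of these 1943 had the same sign and 19 the opposite. These comparisons share the references. A lay farther from the references than B for 59.6% of the genes called higher for the pair and 57.9% of those called lower.

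**Figure D4:**
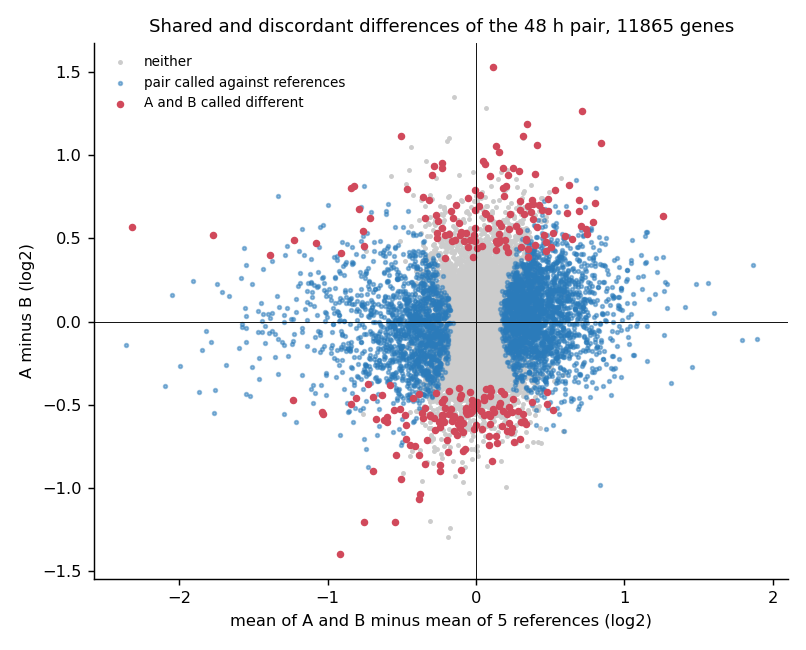
Difference of A from B against the mean difference of the pair from the 5 references for 11865 genes, both on the log2 scale, with 1 point a gene. Genes called for the pair (blue) spread along the horizontal axis to -2.36 and 1.89, and genes called different between A and B (red) lie mostly above and below the middle.

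A direct comparison of A with B asked which genes differed between these 2 arrays by more than the spread among the references and within the other pairs. It compares 2 arrays and no conditions. Of 11865 genes 268 passed, 128 higher in A (1.08%) and 140 higher in B (1.18%), and 14 of them by at least 2-fold, 9 higher in A and 5 in B. These calls were fragile. With the mean of all probe sets of a gene none passed (2018 genes had an unadjusted p under 0.05), with no filter 4 did, without the variance trend 1 did, and without the first array without virus 105 did. Of the 268, 82 were also called for the pair (30.6%), near the 31.8% of all genes tested that were. These 82 are 2.17% of the pair's 3771 calls, beside the 1.08% and 1.18% of all genes given above. A and B lay on opposite sides of all 5 references for 115 of the 268. A alone was outside the references for 54 and B alone for 33, and for 66 both were outside on one side. Choosing genes by a difference of A from B itself favours opposite sides. Over all 11865 genes tested, A was outside the references for 7902, wherever B lay, and B for 7327, wherever A lay. How many of all genes had A and B on opposite sides was not counted, so these positions are a description.

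The genes higher in A were led by single genes of unlike function. A probe set annotated to the microRNA gene MIR302B, which does not measure the mature microRNA, read 76.9 on A and 16.2 on B, against 26.1 to 42.9 on the references (log2 difference of A from B 1.53 ± 0.24, limma adjusted p = 0.0246). CILK1, a kinase gene of cilia, measured 189.7 and 69.6 against 57.6 to 82.3 on the references, so A alone stood out (1.26 ± 0.26, limma adjusted p = 0.0329). CRCP, an RNA polymerase III subunit gene, had the smallest p, with 231.2 and 92.5 against 102.7 to 120.5 (1.19 ± 0.14, limma adjusted p = 0.00434). RWDD3 was higher on both arrays than on any reference, at 655.8 and 303.9 against 215.6 to 263.4, and much more so on A (1.07). FUBP3 (1.11), the superoxide dismutase gene SOD2 (1.06) and the alcohol dehydrogenase gene ADH4 (1.05) were above all references on A. WNT16 differed through B, which was at 1.9 where A measured 22.8 and the references 18.1 to 32.3.

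For the 8 leading genes higher in B, A lay farther from the references than B did. ANXA2P2 measured 95.5 on A and 278.0 on B, against 288.4 to 371.1 on the references (-1.40 ± 0.27, limma adjusted p = 0.0286), but it is a pseudogene close in sequence to ANXA2, so which gene it reads is uncertain. TFAP4, a bHLH factor gene and a known MYC target, measured 15.1 on A and 47.7 on B, against 36.2 to 46.1 on the references (-1.03 ± 0.20, limma adjusted p = 0.0288). OAF (-1.20), ZGLP1 (-1.20), the mitochondrial carrier gene SLC25A25 (-1.06), the anion exchanger gene SLC4A2 (-0.95), TSPYL2 (-0.90) and the mitochondrial ribosome gene MRPL2 (-0.90) were all below every reference on A. B lay within the references for OAF, SLC25A25 and SLC4A2 just above them for TFAP4 and MRPL2, and just below them for ANXA2P2, ZGLP1 and TSPYL2.

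Members of the gene lists were also among the genes called different. The retinoblastoma gene RB1 measured 407.6 on A and 271.0 on B, against 345.4 to 418.6 on the references (0.56 ± 0.12, limma adjusted p = 0.0369), so B alone was low. The related RBL2 gave 0.82, the mitotic spindle gene NUSAP1 0.52, LYAR 0.49, the unfolded protein response factor gene XBP1 0.52 and COL1A1 0.57. Higher in B were MLXIP (-0.61), MAX (-0.51), UBTF (-0.47), the rDNA transcription factor gene, PHGDH (-0.38) and MCOLN1 (-0.73), a lysosomal channel gene that measured 196.7 on A and 335.6 on B against 190.2 to 236.0 on the references. The poly-A spikes on A, at 2.07-fold the references beside 0.939-fold on B, moved with this comparison, and their part in it was not tested.

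**Figure D5:**
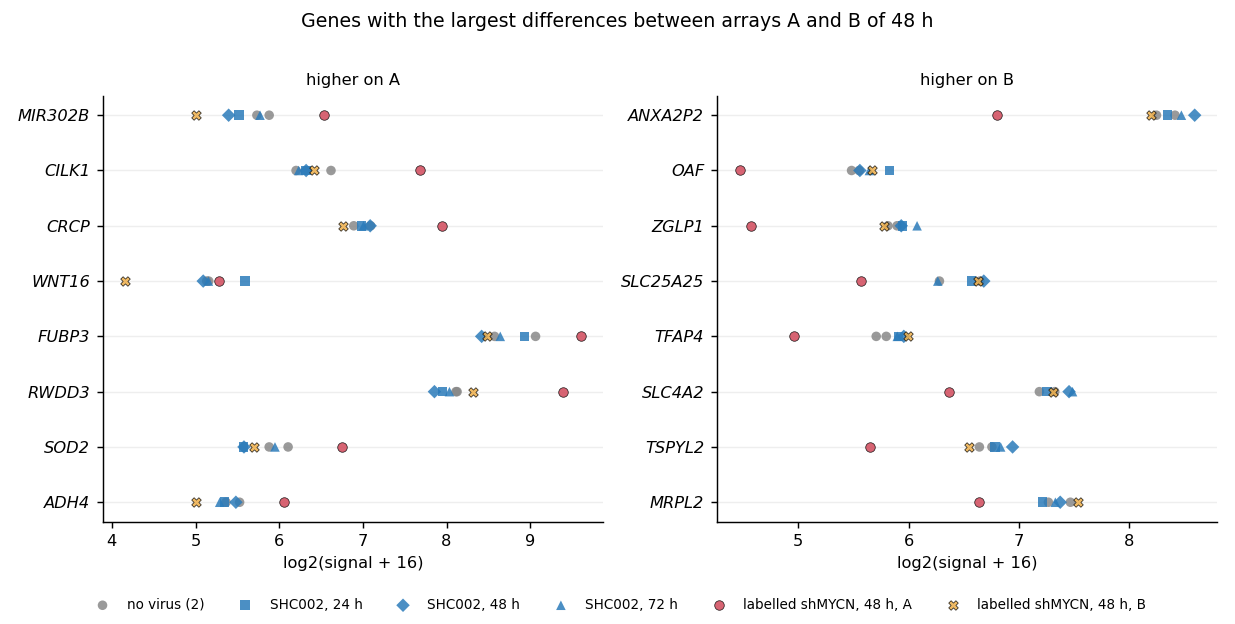
The 8 genes most above B on A (left) and the 8 most above A on B (right) among those past the threshold, as log2(signal + 16), with 1 point an array. A is the array apart from the references for most of them, while for WNT16 B is.

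The letters A and B were then compared across hours. Across genes, the difference of A from B at 48 h correlated at -0.05 with that at 24 h and at 0.10 with that at 72 h, as a description. Of the 268 genes, 43.7% had the same sign of A less B at 24 h and 60.8% at 72 h, against 47.4% and 55.6% of all genes. The correlation of A less B with the step from 24 to 72 h was 0.10. These counts were chosen after values had been seen.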

How the data were processed

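RNA of IMR32 cells was measured on 11 one-colour Affymetrix arrays. The authors deposited a linear signal intensity per probe set, made with MAS5 and GCOS per the submitters' processing notes (versions not given in the sources used here). Background correction and detection calls were not used here. Precision is limited by the number of arrays. Of 54675 probe sets, 62 were controls, 41091 had 1 gene symbol in the platform annotation, 1801 had several and 11783 were controls or unnamed here. For 41037, symbols were updated through Entrez numbers with RefSeq (GRCh38.p14), used for names alone, while promoter windows came from the RefSeq promoter table of that build. For each gene the brightest probe set (mean log2 over 11 arrays) was kept, and the dimmest 40% of 19775 genes were left out, which left 11865.

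From the deposited intensity, log2(signal + 16) was fitted with limma 3.58.1 (R 4.3.3; lmFit and eBayes, with trend) over all 11 arrays in 4 groups: the 5 references pooled, and the arrays labelled shMYCN at 24, 48 and 72 h (7 residual and 7.66 prior degrees of freedom). For A against B, and for A or B alone, both were groups of their own (6 residual and 7.48 prior). All tests were two-sided, adjusted by Benjamini-Hochberg, with a threshold of 0.05. For MYCN and for further probe sets of named genes, all probe sets with 1 symbol were fitted. Errors beside log2 differences are standard errors of the fit, and log2 differences of signals are called differences. The procedure was tested on simulated data.

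The arrays, the 25 gene lists (650 distinct genes) and the alternatives were chosen with earlier results of these data known. Named genes were the 10 largest rises and 10 largest falls among called genes outside the references on both arrays, the 8 largest called differences of A from B each way, up to 3 list members by p, up to 2 called in A against B, and the tested MYC network. Alternatives were other offsets, scalings, filters, probe set rules, variance models, references, thresholds, a replicate block and leaving out arrays. The hairpin sequence was not used here.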

Additional observations from a re-analysis of the deposited data

Results flagged for a closer look

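Among the named genes, 114 were checked for a reference array far from the other 4, and 10 met the rule (8.77%), where chance gives about 1 in 20; the 5 references pool treatments and hours. SHC002 at 72 h was low for ID1 (1047.4, next 1768.8) and high for ENO2 (309.2, next 239.2). SHC002 at 48 h was high for PLEKHA6 (10.8, next 2.9) and MNT (302.8, next 253.1) and low for RAP1A (1103.9, next 1253.9) and RB1 (345.4, next 396.4). SHC002 at 24 h was high for WNT16 (32.3, next 19.7) and DNAJA1 (3266.1, next 3045.5). The second array without virus was high for CILK1 (82.3, next 64) and SRF (148.8, next 119.0).

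Outside the genes, the spiked control RNAs stood out on array A of 48 h. The poly-A spikes were at 2.07-fold the references (highest reference 1.02) and the 9 hybridization spike probe sets read at 1.21-fold (highest reference 1.08).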

How the results depend on the processing

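Of 102 named results past the threshold, 67 remained past it under every alternative run other than the threshold of 0.01, and 4 of 20 that had not passed did so under some, namely MYCNOS, MAX, MLXIP and 1 MYCN probe set. For the pair against the references, the 3771 calls became 2387 at an adjusted p of 0.01 and 2015 against the SHC002 array of 48 h alone. Leaving out 1 array gave 2927 (without A) to 3956 (without B). Whether the letters pair the arrays across hours was not tested. As a description, the differences of A from B at the 3 hours correlated across genes at -0.05, 0.10 and 0.04. With the letter as a replicate block 3897 genes were called. The count of both arrays outside the references was 4821, and 8942 against the SHC002 array of 48 h alone. On leaving out 1 array it was 5097 (without the first array without virus) to 7902 (without B), with 7327 without A, which follows from having fewer arrays to lie outside. For A against B, the 268 calls became 418 with quantile normalization, 146 with median scaling (35 higher in A and 111 lower, in place of 128 and 140), 4 with no filter, 486 with the dimmest 60% left out, 0 with the mean of all probe sets (2018 at an unadjusted p under 0.05; smallest limma adjusted p = 0.0576), 1 with no trend, 24 with the 7 arrays alone, 2 at an adjusted p of 0.01, and 105 (without the first array without virus) to 516 (without SHC002 at 72 h) on leaving out 1 reference. Signs turned with the mean of all probe sets for RPS28 (0.19), CD79A (-0.035) and MAX (-0.055). They turned against the SHC002 array of 48 h alone for MYCN (-0.030), MXD3 (-0.27) and MNT (-0.095). On leaving out B and A in turn, the differences ran from -0.10 to 0.41 for MAX, from -0.13 to 0.32 for MXD3, from -0.033 to 0.28 for MNT, from -0.52 to 0.088 for MLXIP, and for the MYCN probe sets after the brightest from -0.31 to 0.62, from -0.33 to 0.56 and from -0.020 to 0.22. The dimmest of these 4 also turned against the 3 SHC002 arrays (-0.047) and without the first array without virus (-0.014). The cause was not tested. Dim references, as for PLEKHA6 and TPPP3, limit the size of their folds.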
